A study of Mus musculus with 16 samples.

Results

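Apolipoproteins, cholesterol exporters and lipoprotein receptors were described in cortical RNA of 5xFAD mice fed rapamycin or a vehicle diet. They are 9 genes taken by name from the 47593 genes of the count table: the apolipoproteins Apoe, Clu and Apod, the cholesterol exporters Abca1 and Abcg1, the receptors Lrp1, Vldlr and Lrp8, and the cholesterol-esterifying enzyme Lcat. All 9 were among the 16553 genes that passed the filter on low counts, and none shared exon bases with another gene of the annotation. With rapamycin, Apoe and Clu rose and Abca1, Lrp1 and Vldlr fell in both sexes together at an adjusted p under 0.05. Of all tested genes, 13.3% passed this level. In females or in males alone no gene of the 9 passed by edgeR, where 2 and 0 genes of all did. DESeq2 called 3 of the 9 in females and 0 in males, and 1487 and 18 genes of all. Exon length and mitochondrial measures of the libraries differed between the diets. With either of them as a covariate, none of the 9, and none of all tested genes, passed by edgeR.

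The mice were heterozygous 5xFAD transgenics on a hybrid C57BL/6 and SJL background. All of them, controls included, carried human amyloid precursor protein with the Swedish (K670N, M671L), Florida (I716V) and London (V717I) changes and human presenilin-1 with M146L and L286V. The Thy-1 promoter, which is active in neurons, drives both transgenes, and no mice without them are among the 16 libraries. Rapamycin, an inhibitor of the kinase mTOR, was given in chow from 2 to 5 months of age, and control chow held the microencapsulation carrier alone. There were 4 libraries of each of 4 groups: female vehicle (FC), female rapamycin (FR), male vehicle (MC) and male rapamycin (MR). Female rapamycin libraries are numbered 1, 2, 4 and 5.

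In brain, lipid particles that resemble high-density lipoprotein are made mainly by astrocytes. The exporters Abca1 and Abcg1 move cholesterol and phospholipid onto apolipoprotein E and clusterin, Lcat esterifies the cholesterol, and neurons and glia take the particles up through receptors of the LDL receptor family. Abca1, Abcg1 and Apoe are targets of the liver X receptors, nuclear receptors that respond to oxysterols. Variants of human APOE and CLU are associated with the risk of late-onset Alzheimer's disease, and Vldlr and Lrp8 also serve as receptors of Reelin.

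Batch 2 of the labels holds 5 libraries (FC4, FR4, FR5, MC4 and MR4), and batch 1 holds the other 11. The library labelled male rapamycin 4 held 9935 read pairs of Xist and 0 of Eif2s3y, Kdm5d, Uty and Ddx3y on the Y chromosome, where the other male libraries held at least 1915 of these together, so results with males are also given without it. Total counts ran from 16393501 to 20593089 read pairs, and levels are given in CPM, the counts per 1000000 read pairs after scaling. Markers of glutamatergic neurons, the main neurons of cortex, summed to 4416 to 6178 CPM with vehicle and 4117 to 5720 CPM with rapamycin. Markers of hippocampus summed to 100.06 to 371 CPM and 117 to 577 CPM. Most of the highest sum, in female rapamycin 1, came from 1 of the 6 markers, Wfs1, at 529 CPM. With rapamycin, 2 of the 6 were higher and 2 lower at an unadjusted p under 0.05 by edgeR. Rapamycin libraries also differed from vehicle libraries in 2 library measures. The exon length slope, the trend of a library's deviations in log2 CPM with log2 exon length, ran from 0.00040 to 0.10045 in vehicle and from -0.127 to 0.0640 in rapamycin libraries, and mitochondrial transcripts took 2.64 to 5.47% and 3.75 to 6.99% of read pairs. In bulk tissue, fewer cells of a type and less RNA per cell cannot be told apart.

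Of the 9 genes, 7 have an entry in the table of RefSeq promoters (GRCm38.p6), and for 5 of them an entry starts at the 5′ end given in the count table. The 250 bases before the start are shown for the genes with the largest falls and for Apoe, the most abundant of the 9, because Abca1 and Apoe are both liver X receptor targets that went in opposite directions. Capitals mark matches, on either strand, to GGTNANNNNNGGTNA (a loose form of the repeat bound by liver X receptors with their partner RXR), CACGTG (an E-box), TCACNCCAC (a sterol regulatory element) and GGGCGG (a GC box). The Abca1 sequence is chr4:53159896-53160145, that of Apoe chr7:19699189-19699438 and that of Lrp1 chr10:127621149-127621398, all on the minus strand, and that of Vldlr is chr19:27216234-27216483 on the plus strand.
Abca1: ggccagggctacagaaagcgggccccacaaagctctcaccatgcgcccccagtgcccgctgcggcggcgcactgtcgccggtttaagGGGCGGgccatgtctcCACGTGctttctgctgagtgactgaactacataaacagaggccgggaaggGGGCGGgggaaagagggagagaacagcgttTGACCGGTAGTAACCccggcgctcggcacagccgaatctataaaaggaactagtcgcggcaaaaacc
Apoe: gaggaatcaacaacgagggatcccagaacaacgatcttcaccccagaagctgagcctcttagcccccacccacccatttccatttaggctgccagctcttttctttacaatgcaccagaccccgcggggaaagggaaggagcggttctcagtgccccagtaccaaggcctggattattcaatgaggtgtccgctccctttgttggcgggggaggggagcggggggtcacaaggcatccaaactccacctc
Vldlr: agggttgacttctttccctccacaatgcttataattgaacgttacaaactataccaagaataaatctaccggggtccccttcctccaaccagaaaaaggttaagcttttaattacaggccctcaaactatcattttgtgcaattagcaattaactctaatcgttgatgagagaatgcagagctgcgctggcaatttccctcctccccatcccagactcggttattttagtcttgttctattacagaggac
Lrp1: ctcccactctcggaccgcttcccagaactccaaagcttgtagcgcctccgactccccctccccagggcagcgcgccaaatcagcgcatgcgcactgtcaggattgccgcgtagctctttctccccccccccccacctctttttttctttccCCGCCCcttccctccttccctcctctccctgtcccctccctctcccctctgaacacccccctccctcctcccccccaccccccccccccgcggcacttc
The Abca1 window held the receptor repeat on the strand opposite to the gene, 67 to 53 bases before the start, an E-box 147 to 142 bases before it and 2 GC boxes. Lrp1 held 1 GC box, and the Apoe and Vldlr windows held no match. Over all 32851 promoters of the table, the share with a match in this window was 0.621% for the repeat, 6.02% for the E-box, 1.05% for the sterol element and 32.7% for the GC box. No overlap between motifs occurred in the 4 windows, and a match is a description of letters only. Sequence outside these 250 bases was not searched, so a window without a match does not tell whether a site lies elsewhere. A relation between the matches and the directions of change was not tested.

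Per kilobase of exon, the 9 genes spanned from the most abundant transcripts of the cortex to below the median. Apoe had 683 CPM per kilobase ± 134 (SD, n = 16), which placed it at the 99.8th percentile of tested genes. Clu, which encodes clusterin, followed at 270 ± 39.6, and Apod, a lipocalin carried by oligodendrocytes among other cells, at 63.4 ± 20.9. Apoe and Clu did not overlap with each other or with Apod over the 16 libraries. Below them came Lrp1 at 33.9 ± 15.1, Abcg1 at 16.8 ± 1.91 and Lcat at 15.1 ± 3.93 CPM per kilobase. Abcg1 lay above Lcat in 10 of the 16 libraries, so the order of this pair was not fixed by the data. Vldlr (6.92 ± 1.11) and Lrp8 (6.66 ± 1.74) changed places from library to library, with Vldlr the higher in 8 of 16. Abca1 was lowest at 3.68 ± 1.00 CPM per kilobase, under the 4.54 of the median tested gene.

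**Figure D1:**
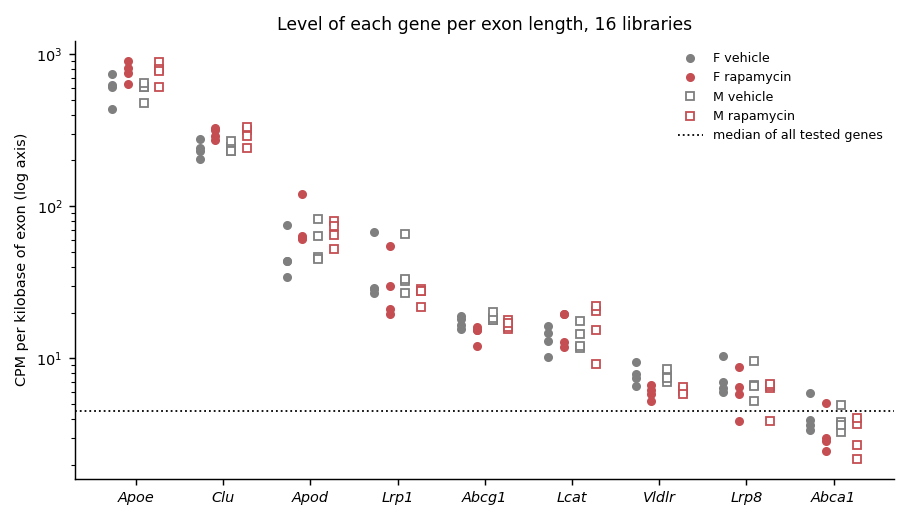
Level of each gene in CPM per kilobase of exon (log axis), with 1 symbol per library (circles, female; open squares, male; grey, vehicle; red, rapamycin) and the median of all tested genes as a dotted line. Apoe and Clu stand apart from every other gene, neighbours further down overlap, and Abca1 lies around the dotted line; the red squares include the library labelled male rapamycin 4.

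Apoe, the main apolipoprotein of brain lipoproteins, was higher with rapamycin in both sexes. Female vehicle libraries 1 to 4 had 1308, 1582, 929 and 1337 CPM, and female rapamycin libraries 1, 2, 4 and 5 had 1733, 1934, 1362 and 1616 CPM. Male vehicle libraries 1 to 4 had 1303, 1307, 1381 and 1024 CPM, and male rapamycin libraries 1 to 4 had 1903, 1702, 1300.1 and 1652 CPM. The groups overlapped in each sex, since female vehicle 2 reached the range of rapamycin and male rapamycin 3 lay among the vehicle libraries. In the edgeR fit of both sexes the log2 fold change was 0.40 ± 0.11 (SE, adjusted p = 0.0256), from a mean of 1271 CPM ± 205 (SD, n = 8) to 1650.3 ± 227. The difference between the mean log2 CPM of the diets was 0.40 within batch 1 and 0.39 within batch 2.

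Clu, a secreted chaperone and lipid carrier, gave a smaller change with a smaller spread. It had 833, 953, 700.05 and 789 CPM in female vehicle and 1086, 1124, 943 and 995 CPM in female rapamycin libraries. In males it had 842, 797, 922 and 791 CPM with vehicle and 1097, 996, 834 and 1139 CPM with rapamycin. Only female vehicle 2 among the female controls reached the lowest female rapamycin library, and male rapamycin 3 was again the rapamycin library inside the control range. In the fit it had a log2 fold change of 0.32 ± 0.08 (SE, adjusted p = 0.0230), with 0.29 within batch 1 and 0.37 within batch 2. Across the 16 libraries Clu followed Apoe closely, with r = 0.93 between their log2 CPM after batch means were removed.

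Apod, a lipocalin that binds lipids, had the highest log2 fold change of the 9 genes and a wide spread, and did not pass by edgeR. Female vehicle libraries had 112, 193, 112 and 88.8 CPM, and female rapamycin libraries had 164, 311, 158 and 158 CPM. Male vehicle libraries had 120, 213, 165 and 116 CPM, and male rapamycin libraries had 168, 206, 135 and 192 CPM. Female rapamycin 2 was far above every other library, and the male groups overlapped over most of their range. Over both sexes the log2 fold change was 0.48 ± 0.18 (adjusted p = 0.0790), and 0.32 (adjusted p = 0.218) without female rapamycin 2. The same library also had the highest summed CPM of 10 oligodendrocyte markers, 9870 against at most 6845 in any other library; the part of this in the Apod value was not tested.

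Lcat, the plasma and brain enzyme that esterifies cholesterol on lipoproteins, did not pass by edgeR. It ranged from 13.7 to 23.7 CPM with a median of 18.4 in vehicle libraries and from 12.3 to 29.9 with a median of 23.5 in rapamycin libraries. The rapamycin range enclosed the vehicle range. The log2 fold change was 0.18 ± 0.15 (adjusted p = 0.441), with 0.05 within batch 1 and 0.42 within batch 2. It was 0.07 (adjusted p = 0.757) without male rapamycin 1 and 0.27 without male rapamycin 2.

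Abca1, which loads cholesterol and phospholipid onto lipid-poor apolipoproteins, fell. Female vehicle libraries had 37.9, 41.2, 35.2 and 61.8 CPM, and female rapamycin libraries had 25.4, 29.7, 52.8 and 30.9 CPM. Male vehicle libraries had 39.6, 34.3, 38.1 and 51.3 CPM, and male rapamycin libraries had 38.7, 22.7, 28.1 and 42.3 CPM. The batch 2 controls, female vehicle 4 and male vehicle 4, were the highest of their groups, and female rapamycin 4 was the rapamycin library inside the control range in females. The fitted change was -0.40 ± 0.11 (adjusted p = 0.0315), with -0.40 within batch 1 and -0.46 within batch 2. The call depended on the batch term, since without it the adjusted p was 0.292. Log2 CPM was 0.49 higher on average in batch 2 than in batch 1. The mean exon length slope was also higher in batch 2, at 0.0974 against 0.0264 with vehicle and 0.0051 against -0.0737 with rapamycin. Whether batch or the slope accounts for the higher Abca1 values was not tested.

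Abcg1, which exports cholesterol to particles that already carry lipid, was lower in value and did not pass by edgeR. It ranged from 63.2 to 81.6 CPM (median 73.1) with vehicle and from 48.8 to 72.3 CPM (median 64.5) with rapamycin. Female rapamycin 1 was the lowest library, and the remaining rapamycin libraries lay within or just at the edge of the control range. Its log2 fold change was -0.20 ± 0.07 (adjusted p = 0.0759), less than that of Abca1 in size.

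Lrp1, a large endocytic receptor of apolipoprotein E on neurons, glia and vessels, had the largest fall in value. Female vehicle libraries had 517, 509, 474 and 1206.5 CPM, and female rapamycin libraries had 346.5, 373, 973.5 and 528 CPM. Male vehicle libraries had 572, 593, 477 and 1170.5 CPM, and male rapamycin libraries had 506, 383, 489 and 493 CPM. The batch 2 libraries female vehicle 4, male vehicle 4 and female rapamycin 4 had the 3 highest values, far above batch 1 of either diet. The log2 fold change was -0.48 ± 0.14 (adjusted p = 0.0300). Within batch 1 the difference was -0.33 and within batch 2 it was -0.91, and batch 1 alone passed in its own fit while the fit without the batch term gave an adjusted p of 0.341.

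Vldlr, a receptor of apolipoprotein E and of Reelin, had the smallest p of the 9 genes and little batch difference. Female vehicle libraries had 80.0, 66.5, 94.8 and 74.8 CPM, and female rapamycin libraries had 52.5, 59.1, 67.2 and 62.2 CPM. Male vehicle libraries had 78.7, 70.2, 75.3 and 86.2 CPM, and male rapamycin libraries had 62.5, 61.6, 65.2 and 58.4 CPM. In males every rapamycin library lay below every vehicle library, and in females only female rapamycin 4 and female vehicle 2 crossed. The log2 fold change was -0.37 ± 0.08 (adjusted p = 0.0133), and it was -0.36 within each batch. Vldlr was the sole gene of the 9 without overlap between diets in males, a state found in 6.13% of tested genes; none of the 9 had it in females (5.78%) or over both sexes (0.489%).

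Lrp8, the neuronal apolipoprotein E receptor 2, was lower in value and did not pass by edgeR. Female vehicle libraries had 67.0, 62.9, 73.9 and 109 CPM and female rapamycin libraries 61.6, 41.1, 93.0 and 67.9 CPM. Male vehicle libraries had 55.2, 70.7, 69.3 and 101 CPM and male rapamycin libraries 67.7, 41.1, 69.0 and 71.2 CPM. As with Lrp1, the batch 2 controls and female rapamycin 4 were the highest, and female rapamycin 2 and male rapamycin 2 were the lowest. The log2 fold change was -0.30 ± 0.12 (adjusted p = 0.0908), with -0.28 within batch 1 and -0.45 within batch 2.

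**Figure D2:**
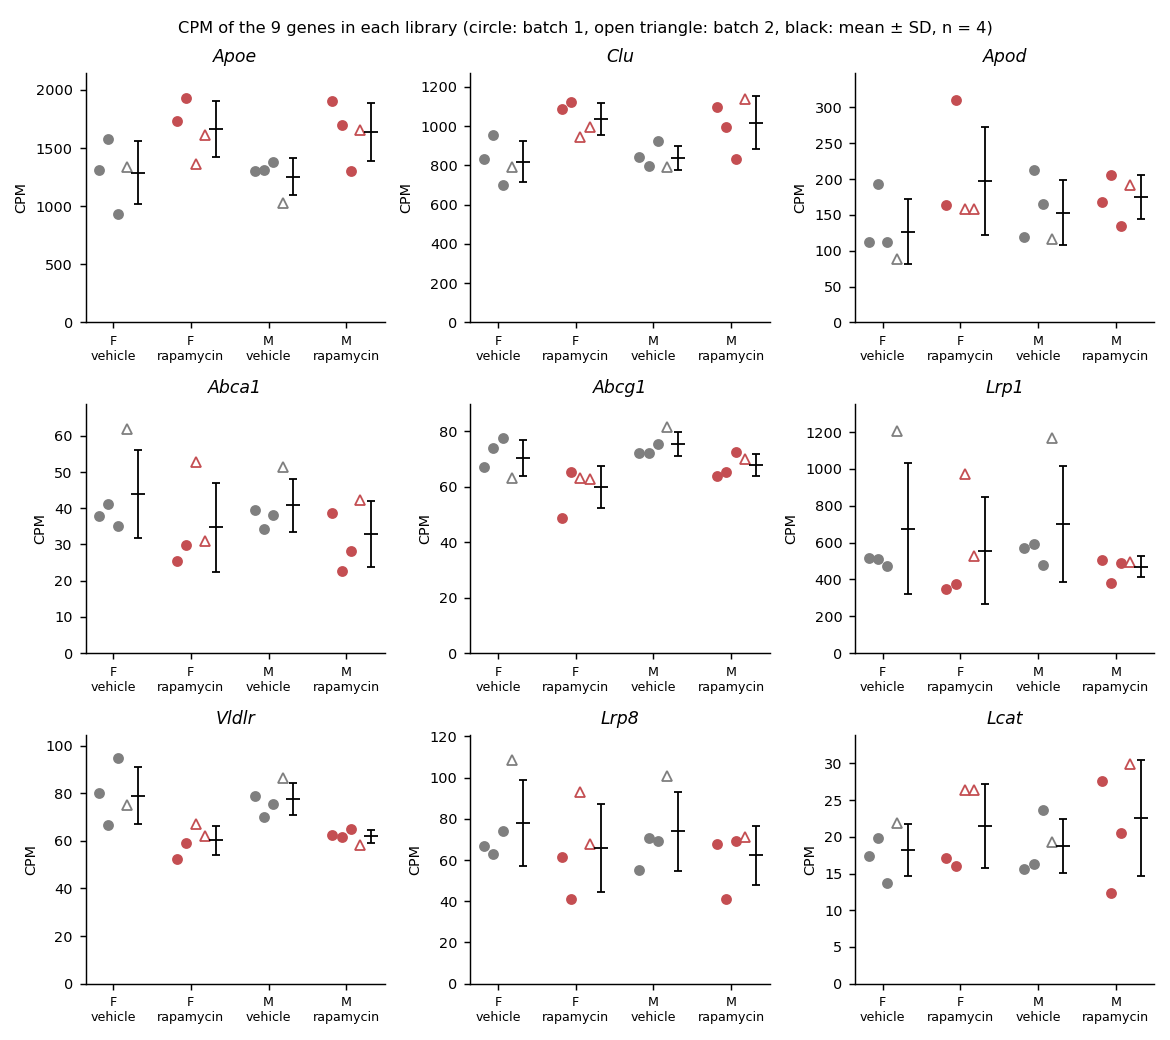
CPM of each gene in each library by group, with filled circles for batch 1, open triangles for batch 2, and the mean ± SD (n = 4) in black; grey is vehicle and red is rapamycin. Apoe and Clu sit higher and Vldlr lower in both red groups, while in Lrp1, Lrp8 and Abca1 the triangles of both vehicle groups and the higher triangle of female rapamycin stand above the circles of their groups; the triangle of male rapamycin is the library labelled male rapamycin 4.

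Over both sexes, then, 5 of the 9 genes passed an adjusted p of 0.05, a level that 13.3% of tested genes passed. The 2 that rose were Apoe and Clu (6.46% of tested genes rose) and the 3 that fell were Abca1, Lrp1 and Vldlr (6.86% fell). No gene of the 9 reached the fold change of 1.5 that the study asks of a DEG, which 2.26% of tested genes did together with the adjusted p. At an unadjusted p under 0.05 there were 8 of the 9 (30.4% of tested genes), all but Lcat. The median log2 fold change of the 9 was -0.20, and that of all tested genes was 0.02. Calls were lost when some libraries were left out in turn. Apoe lost its call without female rapamycin 1 or 2, male vehicle 4 or male rapamycin 2 (adjusted p 0.0517 to 0.0617), and Clu without the first 3 of these (0.0503 to 0.0568). Abca1 lost it without female vehicle 2 or 4, female rapamycin 1 or 2, male vehicle 1 or male rapamycin 2 (0.0506 to 0.0788), and Lrp1 without female vehicle 4, female rapamycin 1, 2 or 5, male vehicle 4 or male rapamycin 2 (0.0524 to 0.0688). Vldlr passed in all 16 of these fits. Apod passed without male vehicle 2 (adjusted p = 0.0479) or male rapamycin 3 (0.0307), and Lrp8 without male rapamycin 1 (0.0482) or 3 (0.0387). Without the library labelled male rapamycin 4 the 5 genes passed again, with adjusted p from 0.0241 for Vldlr to 0.0462 for Abca1. Without it and male vehicle 4 together, chosen after seeing the data, Vldlr passed (adjusted p = 0.0416) and Lrp1, Clu, Abca1 and Apoe had adjusted p from 0.0510 to 0.0720.

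The sign of the change went with the exon length of the gene. The 4 genes higher in value, Lcat (1342 bases), Apoe (2138), Apod (2577) and Clu (3438), are all shorter than the 5 lower ones, Abcg1 (4066), Vldlr (10068), Abca1 (10363), Lrp8 (10514) and Lrp1 (17717). The same trend ran through the transcriptome: among 10 bins of tested genes by length, the median log2 fold change went from 0.27 in the shortest bin to -0.20 in the longest. Apoe lay below the 90th percentile of its own bin (0.40 against 0.41), and Clu and Apod lay above theirs (0.32 against 0.31, and 0.48 against 0.34). Lcat, at 0.18, lay near the median of its bin of 0.19. Among the 4 genes of the longest bin, whose 10th percentile was -0.48, Abca1, Vldlr and Lrp8 lay inside it and Lrp1 just beyond it at -0.482 against -0.476.

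**Figure D3:**
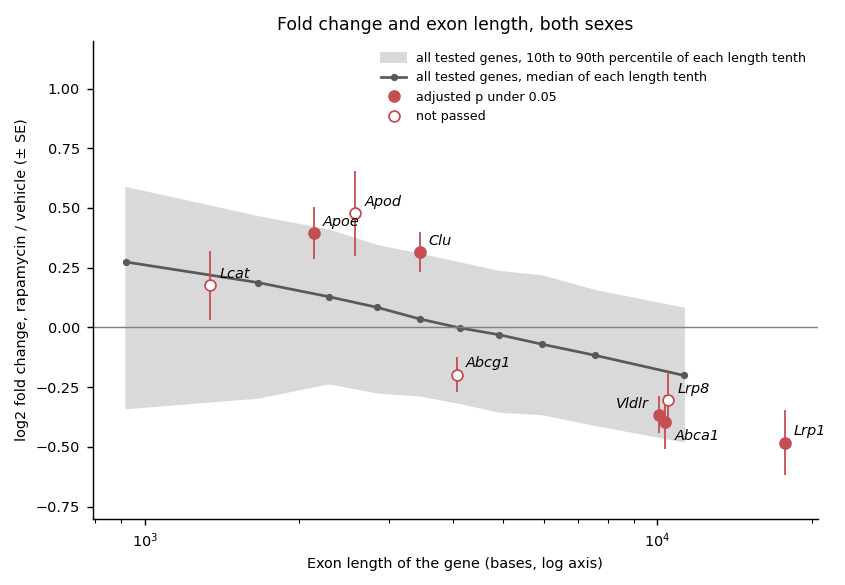
Log2 fold change of rapamycin against vehicle (both sexes, ± SE) against exon length in bases (log axis) for the 9 genes in red, filled where the adjusted p was under 0.05, over the median (line) and 10th to 90th percentile (grey) of all tested genes in 10 length bins. The short genes lie above 0 and the long genes below 0, as the line does, with Clu and Apod above the grey band and Lrp1 to the right of it, since it is longer than the median of the last bin.

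With the exon length slope of each library as a covariate, none of the 9 genes passed by edgeR, none had an unadjusted p under 0.05, and 965 genes of all tested had one. Apoe was then at 0.12 ± 0.14, Clu at 0.12 ± 0.11, Vldlr at -0.18 ± 0.10, Abca1 at -0.13 ± 0.15 and Lrp1 at -0.13 ± 0.18, and Lrp8 changed sign to 0.10 ± 0.13. Because the slope differed between the diets, this fit removes what the slope and the diet share, and the 2 cannot be told apart. With the mitochondrial share as a covariate none passed either, and 3 had an unadjusted p under 0.05, as did 1318 of the 16553 tested genes. In that fit Vldlr was at -0.38 ± 0.11, Apoe at 0.35 ± 0.17, Clu at 0.25 ± 0.12, Abca1 at -0.27 ± 0.17 and Lrp1 at -0.29 ± 0.19. Offsets that remove trends with exon length and GC content inside each library, chosen after seeing the data, left Clu past the threshold (0.30 ± 0.07, adjusted p = 0.0273), with Apoe at 0.26 ± 0.08 (adjusted p = 0.0597), Lrp1 at -0.27 ± 0.09 (adjusted p = 0.0650) and Vldlr at -0.17 ± 0.07 (adjusted p = 0.134). All 9 genes had their reported sign in that fit.

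The study also asked whether the sexes respond alike. In females no gene of the 9 passed by edgeR (2 genes passed in all, 0.0121%). At an unadjusted p under 0.05 by edgeR there were 8 (23.1% of tested genes). DESeq2 called 3 of the 9, Vldlr, Apod and Clu, and 1487 genes of all. The female log2 fold changes were 0.40 ± 0.16 for Apoe, 0.35 ± 0.12 for Clu, 0.74 ± 0.24 for Apod, -0.48 ± 0.16 for Abca1, -0.50 ± 0.20 for Lrp1 and -0.41 ± 0.11 for Vldlr, whose adjusted p of 0.0726 was the smallest. The Apod value was 0.46 without female rapamycin 2. In males none of the 9 passed by edgeR or DESeq2 (0 and 18 genes passed in all). By edgeR 4, namely Apoe, Clu, Lrp1 and Vldlr, had an unadjusted p under 0.05 (12% of tested genes). The male log2 fold changes were 0.39 ± 0.16 for Apoe, 0.28 ± 0.12 for Clu, 0.23 ± 0.24 for Apod, -0.31 ± 0.16 for Abca1, -0.46 ± 0.20 for Lrp1 and -0.32 ± 0.11 for Vldlr. All 9 genes had the same sign in females as in males. Leaving out the library labelled male rapamycin 4 lowered the male values of Clu to 0.19, of Lrp1 to -0.25 and of Apod to 0.02, and left Apoe at 0.34 and Vldlr at -0.27. Without it 1 gene of the 9, Vldlr, had an unadjusted p under 0.05 (1154 genes of all did), likewise 1 without male vehicle 4, and 2 without male vehicle 1 or 2.

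The difference between the sexes itself was tested as an interaction and did not pass for any of the 9 genes by edgeR or DESeq2. None had an unadjusted p under 0.05 (2.17% of tested genes), and the estimates ran from -0.17 ± 0.23 for Abca1 to 0.51 ± 0.34 for Apod. For Apoe the estimate was 0.0012 ± 0.22. The Apod estimate turned on single libraries: it was 0.77 (unadjusted p = 0.0361, adjusted p = 0.997) without the library labelled male rapamycin 4, 0.74 (0.0308 and 0.995) without female vehicle 2, 0.24 without female rapamycin 2 and 0.34 without male vehicle 2. Standard errors of the interaction ran from 0.15 for Abcg1 to 0.34 for Apod, so only a large difference between the sexes was detectable. Between vehicle females and vehicle males no gene of the 9 passed by edgeR or DESeq2, with none at an unadjusted p under 0.05 (3.55% of tested genes), and female minus male log2 differences ran from -0.28 ± 0.24 for Apod to 0.09 ± 0.16 for Abca1.

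**Figure D4:**
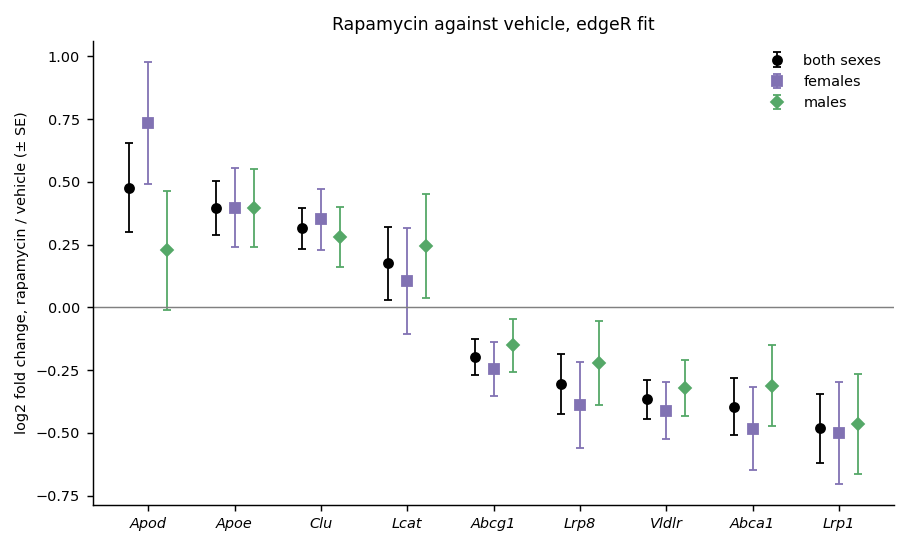
Log2 fold change of rapamycin against vehicle (± SE) for both sexes (black), females (purple) and males (green), with genes ordered by the value for both sexes. Female and male symbols lie on the same side of 0 for each gene, and Apod shows the widest gap between them, 0.74 against 0.23; the female value was 0.46 without female rapamycin 2.

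Genes most like each of the 9 were taken as those with the highest Pearson r of log2 CPM, batch means removed, over the 16 libraries and 14690 genes with a mean of at least 1 CPM. These r are descriptions, and the points share the libraries, their depth and their exon length slopes. Apoe was closest to Id3 (r = 0.94), an inhibitor of basic helix-loop-helix factors, and to Clu (0.93). Clu was closest to Ppp1r14b (0.94) and Apod to Stk11 (0.90) and Cryab (0.89), a small heat shock protein. Abca1 was closest to Sall1 (0.92), a transcription factor of microglia in adult brain, and to Zkscan8 (0.92). Abcg1 was closest to Aplp2 (0.95), a relative of the amyloid precursor protein, and to Chrm3 (0.95). The long receptors were closest to other long genes: Lrp1 to Ubr4 (0.97; 17997 bases of exon) and Chd2 (0.95; 14300), Vldlr to Opa1 (0.95; 7875) among others, and Lrp8 to Ank2 (0.93; 31243). Lcat was closest to Cabp7 (0.91) and Gm2115 (0.89). Within the 9, Vldlr had r = -0.90 with Apoe and -0.88 with Clu, and Lrp1 had r = 0.78 with Abca1.

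The neighbouring parts of the pathway were read from lists of other genes, with rises and falls called in the same fit of both sexes. In that fit 6.46% of all tested genes rose and 6.86% fell, with a median log2 fold change of 0.02. Whether any list departs from these shares was not tested. Of 23 other apolipoproteins and serum amyloid genes, 6 passed the filter on low counts, none of these passed the test by edgeR, 1 had an unadjusted p under 0.05 and DESeq2 called 1; Apoa4 had no count in any library. Of 9 tested genes of lipoprotein remodelling, Pon2 rose (0.36 ± 0.07, adjusted p = 0.0128) and Pon3 fell (-0.81 ± 0.24, adjusted p = 0.0340); both are relatives of the paraoxonase of high-density lipoprotein. Of 24 other sterol transporters and handling proteins, 6 fell and none rose, with a median of -0.14. The largest falls there were Abca3 (-0.51 ± 0.10), a lipid transporter, Abca8a (-0.45 ± 0.13), Stard4 (-0.44 ± 0.13), a cytosolic sterol carrier, and Gramd1b (-0.38 ± 0.10), which carries cholesterol from the plasma membrane to the endoplasmic reticulum.

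Of 20 liver X receptor genes and targets, 1 rose and 3 fell by edgeR, and DESeq2 called 2 higher and 5 lower. Apoe rose, and Ncor1 (-0.42 ± 0.10, adjusted p = 0.0201), a nuclear receptor corepressor, Abca1 and Fasn (-0.33 ± 0.09, adjusted p = 0.0256), the fatty acid synthase, fell. The receptors themselves did not pass by edgeR. Nr1h2 was at 0.20 ± 0.07 (adjusted p = 0.0675), Nr1h3 at -0.06 ± 0.16 (0.825) and the targets Srebf1 at 0.03 ± 0.08 (0.825) and Mylip, which encodes a ubiquitin ligase, at -0.19 ± 0.13 (0.347), each with its adjusted p in parentheses. Thus targets of the same receptors lay on both sides of 0, with a median of -0.05 over the 20.

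Among 19 tested other members of the LDL receptor family and their adaptors, 4 fell, 1 rose, and the median was -0.18. Sorl1, a sorting receptor of the amyloid precursor protein, fell by 0.79 ± 0.11 on the log2 scale (adjusted p = 0.00544), from 479 CPM ± 68.8 to 281 ± 54.8 (SD, n = 8), and no vehicle library was as low as the highest rapamycin library (392 against 385 CPM). Lrp1b (-0.56 ± 0.13), the close relative of Lrp1, and Ldlrad4 (-0.44 ± 0.09) fell as well. Sdc4, a heparan sulfate proteoglycan that can bind lipoproteins, rose (0.61 ± 0.10, adjusted p = 0.00879).

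Of 11 genes of Reelin signalling, in which Vldlr and Lrp8 are the receptors, 2 fell and none rose. Thbs1, a secreted ligand of both receptors, was at -0.96 ± 0.27 (adjusted p = 0.0307) from a level of 3.17 CPM with vehicle, and Pafah1b1 was at -0.33 ± 0.10 (adjusted p = 0.0327). Reln itself, the ligand, was at -0.42 ± 0.21 (adjusted p = 0.183) and the adaptor Dab1 at -0.07 ± 0.07 (adjusted p = 0.570). Of 21 genes of SREBP2 sterol synthesis and uptake, 2 fell and none rose, with a median of -0.07. In each of these lists except lipoprotein remodelling, the genes higher in value had a shorter median exon length than the lower ones.

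**Figure D5:**
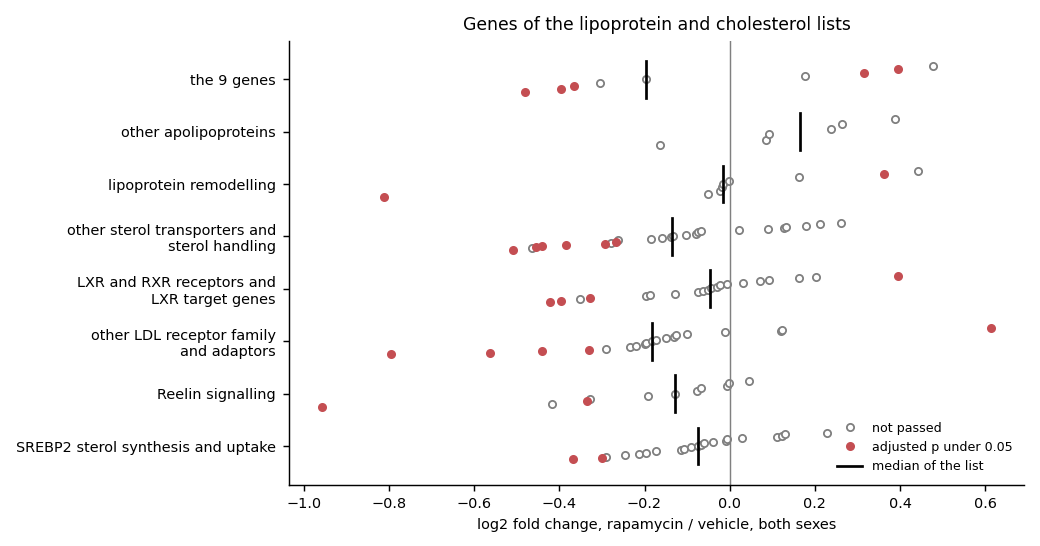
Log2 fold change of rapamycin against vehicle in both sexes for each tested gene of the 9 and of 7 related lists, red where the adjusted p was under 0.05, with the list median as a black bar. Calls lie mostly below 0, with Sdc4 at 0.61, Apoe, Clu and Pon2 as the calls above 0; Apoe and Abca1 also appear in the liver X receptor list.

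Markers of the cells that make or take up these proteins were read beside the 9 genes. They come from the same fit, where 6.46% of tested genes rose and 6.86% fell. Of 12 astrocyte markers 3 rose and none fell by edgeR, 8 had an unadjusted p under 0.05 and DESeq2 called 6, all higher. The median was 0.26, and their summed CPM ran from 4411 to 6702 with vehicle and from 4527 to 7541 with rapamycin. The astrocyte markers higher in value had a median exon length of 3184 bases, and the lower ones 7948.5 bases. Apoe and Clu are themselves abundant in astrocytes, and the part of these markers in their rise was not tested. Of 12 markers of disease-associated microglia, which carry much Apoe, none passed by edgeR, 1 had an unadjusted p under 0.05, DESeq2 called 1, and the median was -0.19. Homeostatic microglia gave the same counts over 10 markers, also with a median of -0.19. Of 13 choroid plexus markers 7 fell, and their sum was 3068 CPM in male vehicle 4 against at most 700.3 in any other library; without male vehicle 4, Abca1 and Vldlr passed, and Clu, Apoe and Lrp1 had adjusted p of 0.0503, 0.0606 and 0.0638.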

How the data were processed

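Cortical poly(A) RNA of 16 libraries had been counted per gene. The authors deposited these counts of read pairs unnormalized. Per the labels and the study's methods they used FastQC 0.11.9, Trimmomatic 0.39, HISAT2 2.2.1 on GRCm38 (mm10) and featureCounts 2.0.3; the labels also name Trim Galore. Strand was not used, and read pairs with several matches were left out. The same deposited counts in 1 table per group held 0 differing cells.

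Genes were kept by filterByExpr (minimum count 10), scaled with TMM factors and tested with the quasi-likelihood test of edgeR 4.0.16 in R 4.3.3. The terms were sex, batch and diet, or group and batch within sexes, with Benjamini-Hochberg adjustment over 16553 genes. SE is that of the log2 fold change, and log2 CPM has a prior count of 2. DESeq2 1.42.0 was an alternative. Scripts were tested on simulated data. The 9 genes, lists and alternatives were chosen with earlier results of these data known. Named are the 9 genes, per list at most 4 passing genes of largest change, and up to 2 likest genes each. Also named are the regulators Nr1h2, Nr1h3, Srebf1, Mylip, Reln and Dab1, the sex-linked genes, and Wfs1 for its share of the hippocampal sum. Some genes that this rule names are not reported here, though counts over lists include them. Marker lists not described above (reactive astrocytes, oligodendrocyte precursors, endothelium, mural and leptomeningeal cells, red blood cells, neurons, striatum, hippocampus) appear in the closing section. The labels do not say whether each library is a separate mouse, and the study describes both individual mice and pooled samples, so p-values measure the spread between libraries. Figures used Python with matplotlib.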

Additional observations from a re-analysis of the deposited data

Results flagged for a closer look

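Of 36 sets of 4 libraries (9 genes in 4 groups), 6 held a library whose gap to its neighbour exceeded Dixon's critical value for 4 samples; chance gives about 1 in 20 sets. Apod in female rapamycin 2 was the highest of its group at 311 CPM, with 164 CPM in the next library, and Abcg1 in female rapamycin 1 was the lowest at 48.8 CPM, with 62.8 CPM next. Lrp1 was the highest in female vehicle 4 at 1206.5 CPM (517 next) and in male vehicle 4 at 1170.5 CPM (593 next), both of them the batch 2 libraries of their groups. In male rapamycin 2, Lrp1 was the lowest at 383 CPM (489 next) and so was Lrp8 at 41.1 CPM (67.7 next). Male rapamycin 2 also had an exon length slope of -0.122 and a mitochondrial share of 6.99%, the highest of the 16 libraries; the part of these in its Lrp1 and Lrp8 values was not tested.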

How the results depend on the processing

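For both sexes, 5 of the 9 genes and 2205 of all genes passed. RLE factors gave 5 (2235 of all), DESeq2 7 (3086) and no filter on low counts 7 (2626). Of the 7 by DESeq2, 3 were higher and 4 lower with rapamycin. Fewer passed without the batch term (1 gene of the 9, Vldlr; 142 of all), in batch 1 alone (2; 1240), with a covariate, either the mitochondrial share (0; 0) or the exon length slope (0; 0), with exon length and GC offsets (1; 1109) and without the library labelled male rapamycin 4 and male vehicle 4 (1; 1040). Leaving out 1 library gave 1 (without female rapamycin 1 or 2) to 7 genes of the 9 (without male rapamycin 3) and 719 (without female rapamycin 1) to 3352 of all (without female rapamycin 4). Also, 3 of the 9 passed without female vehicle 4, and 2 without male vehicle 4 or male rapamycin 2. Vldlr passed in all 16 of these fits, Clu in 13, Apoe in 12, Abca1 and Lrp1 in 10, Apod and Lrp8 in 2.

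In females, DESeq2 called 3 of the 9 and 1487 of all, no filter 4 and 1678, batch 1 alone 1 and 1290; no batch term, the slope and the mitochondrial share left 1 gene of all. Leaving out 1 library gave 0 to 3 of the 9 and 1 to 2104 of all, both highest without female rapamycin 4. In males, DESeq2 called 18 of all, no filter 526 and 1 of the 9 (Lrp1), the replicate block 1, and leave-one-out fits 0 to 1. For the interaction, no filter called 87. For vehicle females against males the counts of all were 9 (DESeq2), 144 (no filter), 1 (no batch term, slope or mitochondrial share), 6 (batch 1 alone, or without the library labelled male rapamycin 4 and male vehicle 4), 0 (block) and 0 to 6 (leave-one-out).

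Signs reversed with the slope covariate for Lrp8 (0.10 in both sexes, 0.14 in females, 0.086 in males) and for Apod in males (-0.11), with the mitochondrial share for Lrp8 in males (0.0049), and for Lcat in females in batch 1 alone (-0.032) and with the offsets (-0.11). None of these passed, and the cause was not tested.

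Replicate numbers were not taken as pairs: 18 of 21 same-numbered pairs had r over 0.1 (range -0.157 to 0.675), and 12 of 16 libraries were closest to their own number. With the replicate block in place of batch, 4 of the 9 (Apoe, Clu, Apod, Vldlr) and 1298 of all passed, and Abca1 and Lrp1 had adjusted p of 0.0523 and 0.0661. No pair of libraries of a group agreed within sampling noise, so each was counted once. Lcat had the fewest read pairs of the 9 genes, 208 to 580 per library.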

Other observations

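The remaining cell marker lists gave few calls. By edgeR, 1 of 8 endothelial markers rose and 1 fell, and 1 of 9 glutamatergic neuron markers fell. None passed among 7 reactive astrocyte markers (2 at an unadjusted p under 0.05, 0 by DESeq2), 10 oligodendrocyte markers (2 and 1), 7 GABAergic neuron markers (1 and 1), 6 hippocampal markers (4 and 1), and the lists of 6 oligodendrocyte precursor, 8 mural, 11 leptomeningeal and fibroblast, 5 red blood cell and 7 striatal markers (0 and 0 in each). The median log2 fold change of the red blood cell list was 0.72, and its summed CPM ran from 1.68 to 32.2 with vehicle and from 2.52 to 26.7 with rapamycin. The oligodendrocyte sum ran from 3835 to 6207 CPM with vehicle and from 3803 to 9870 with rapamycin.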
